A study of Mus musculus with 19 samples.

Results

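Potassium channel genes were described in hippocampal RNA of APP/PS1 mice, a transgenic model of amyloid deposition, and their wild-type (WT) littermates. The members were all genes whose RefSeq symbol starts with Kcn, without Kcne2, Kcnj10 and Kcnj13, that had a probe well above background on at least 6 of the 19 arrays. Of 98 Kcn genes with a probe, 82 met this rule, 3 were left out by name and 13 were below detection, out of 25599 genes tested in all. Among the 13 were Kcna10, Kcne4, Kcnh6, Kcnj1, Kcnj15, Kcnk5, Kcnk7, Kcnk9, Kcnk15, Kcnk18, Kcnmb3 and Kcnmb4os1, and their values are not described.

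The groups were APP/PS1 mice given urolithin A (UA, n = 6), APP/PS1 mice given vehicle (n = 7) and WT littermates given vehicle (n = 6), all 8 months old. UA, a gut bacterial metabolite of dietary ellagitannins, was dosed at 200 mg per kg per day by gavage in DMSO between 6 and 8 months of age, and DMSO alone was the vehicle. Every group thus carried DMSO gavage, and no WT group received UA. The transgenes of this strain are driven by the prion promoter, so amyloid comes from overexpression in neurons and other brain cells. Arrays per group match the stated numbers of animals, and each array was taken as 1 mouse.

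Potassium channels let potassium leave the cell and so set the resting potential, end each action potential and limit firing rate. Voltage-gated channels (Kcna, Kcnb, Kcnc, Kcnd, Kcnh and Kcnq) open on depolarization, calcium-activated channels (Kcnma, Kcnn) open when calcium enters, and inward rectifiers (Kcnj) and leak channels (Kcnk) hold the resting potential. In the hippocampus, fast-spiking interneurons are known for Kcnc channels, axons for Kcna channels, and pyramidal cell dendrites for Kcnd and Kcnb channels.

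Levels are the processed green signal on a log2 scale, relative to the 75th percentile of its own array, so a gene at that percentile has level 0. Each gene is given by its brightest kept probe, and differences are in log2 units with their standard error (SE) from a limma fit over all 19 arrays. A difference passed at an adjusted p under 0.05 (Benjamini-Hochberg over all 25599 genes). Prnp, whose promoter and noncoding sequence the transgenes carry, checked the labels: its lowest, median and highest levels were 7.79, 7.98 and 8.46 in UA, 7.94, 8.06 and 8.37 in APP/PS1 vehicle and 6.16, 6.43 and 6.51 in WT mice. All 13 transgenic arrays lay above all 6 WT arrays. The 9 marker genes chosen for pyramidal and granule cells, the principal neurons of the hippocampus, were well above background on every array. The 75th percentile lay between 643 and 1762 intensity units, and the share of probes well above background between 51.4% and 59.4%. All 6 WT arrays shared slide 1 with 2 arrays of APP/PS1 vehicle mice. The other 5 vehicle arrays were on slide 2 beside 3 of the UA mice, whose remaining 3 were alone on slide 3, so UA and WT arrays shared no slide.

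In APP/PS1 vehicle against WT hippocampus, 5 of the 82 potassium channel genes fell and none rose. They were Kcnc1, Kcnc2, Kcnv1, Kcna2 and Kcnn2, and their differences lay between -0.63 and -0.33. Over all genes tested, 4.87% passed, 2.28% lower and 2.59% higher, against 6.1% of the potassium channel genes. Most other members had small negative differences: 67 of 82 were below 0, or 81.7%, against 48.9% of all genes. The members' median difference was -0.20, their range -0.71 to 0.38, and the median of all genes was 0.01. An unadjusted p under 0.05 was seen for 26 members, or 31.7%, against 23.7% of all genes. In bulk tissue, fewer cells of a type and less RNA per cell cannot be told apart.

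**Figure D1:**
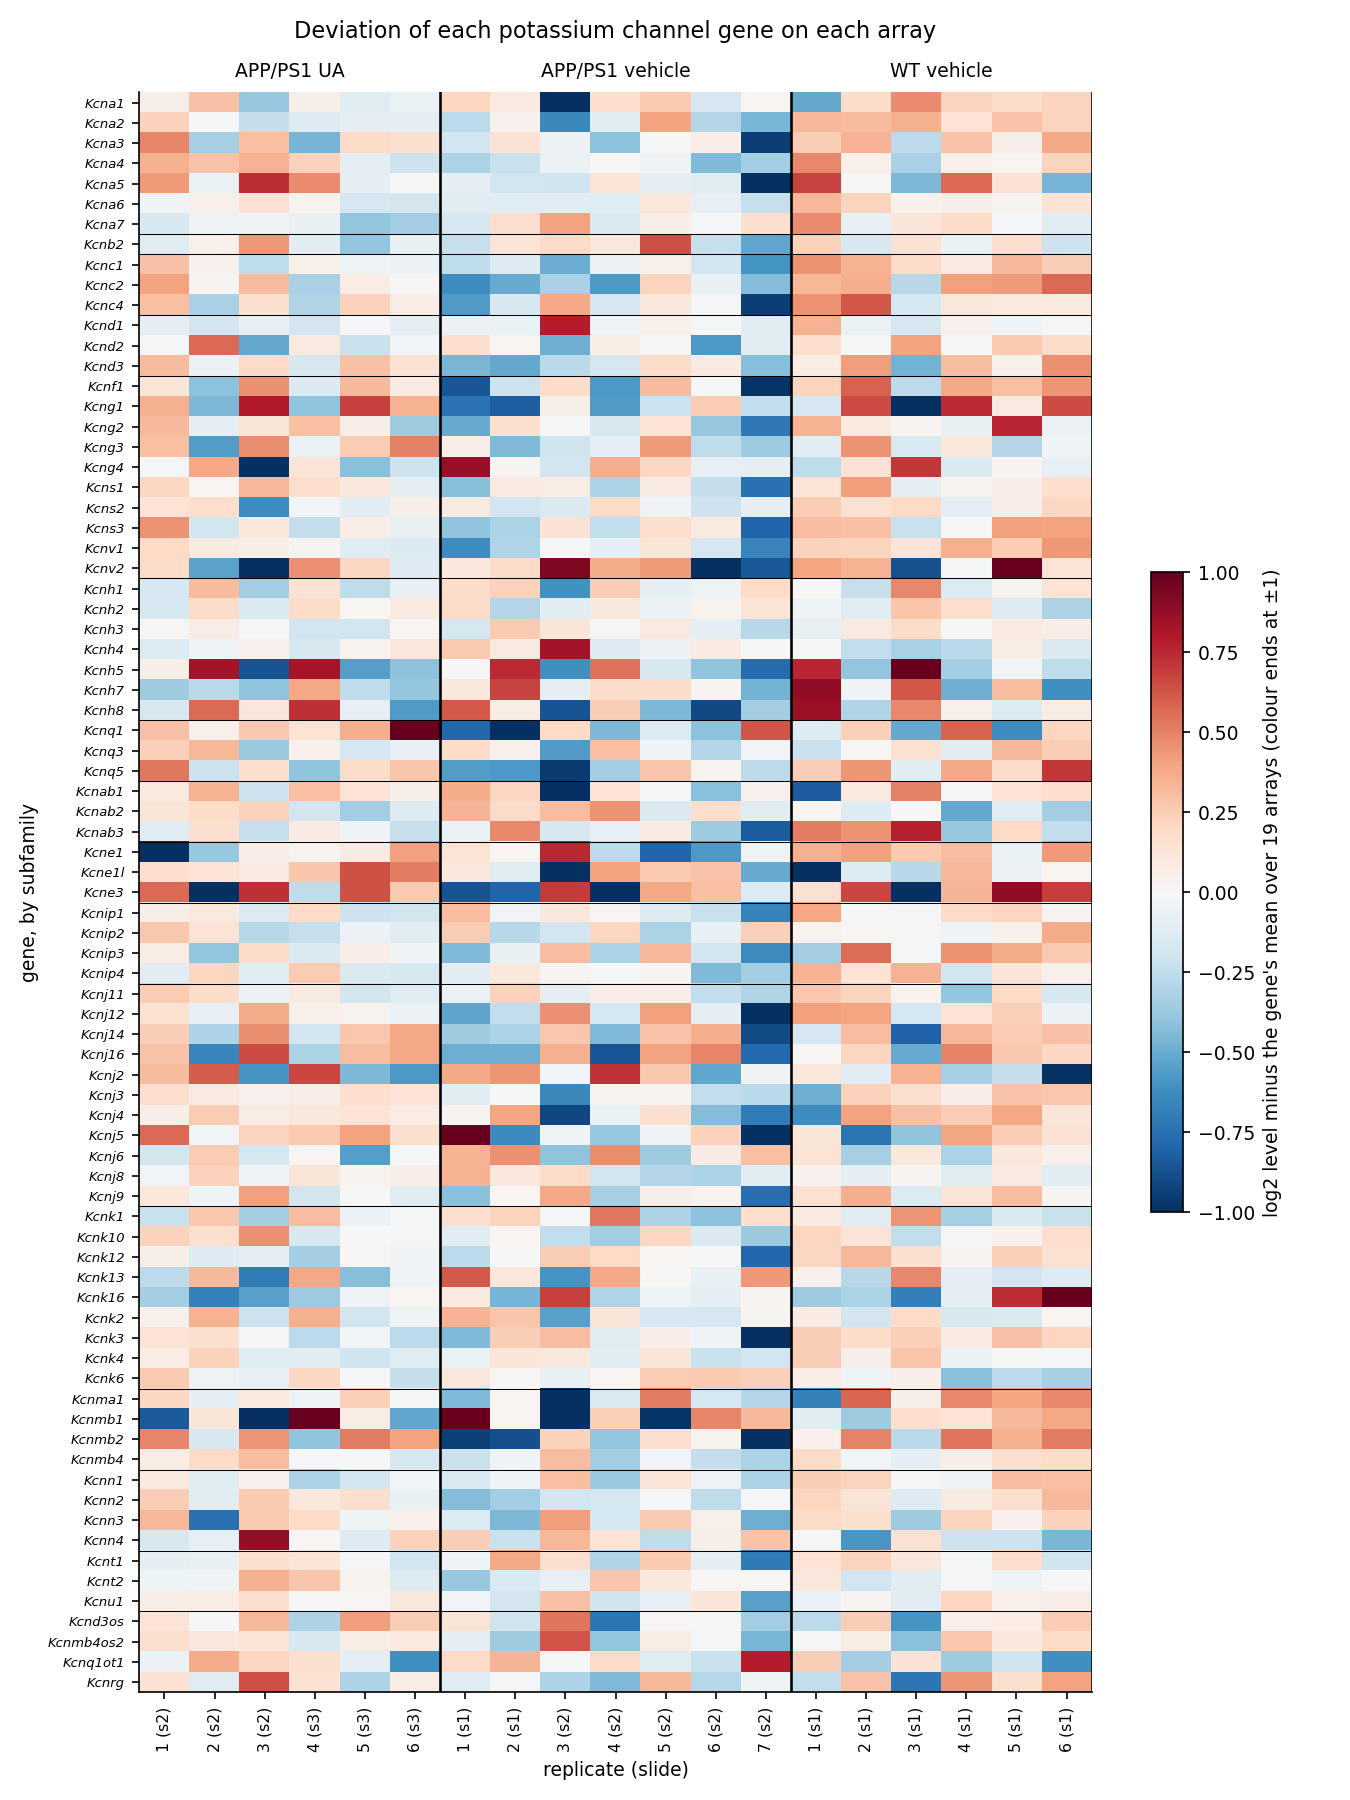
Heat map of 79 of the 82 potassium channel genes (rows, grouped by subfamily) on 19 arrays (columns, numbered by replicate, with the slide in brackets). Colour is the log2 level minus the gene's mean over all arrays, in log2 units with the scale ending at 1 on either side. APP/PS1 vehicle replicate 7 is the bluest column, with a median deviation of -0.31 over the 82 genes.

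The Kcnc genes encode the fast Kv3-type channels that allow high-frequency firing, and 2 of the 4, Kcnc1 and Kcnc2, fell. The lowest, median and highest levels of Kcnc1 were 1.03, 1.28 and 1.58 in UA, 0.68, 1.10 and 1.34 in APP/PS1 vehicle and 1.37, 1.57 and 1.73 in WT mice. Every APP/PS1 vehicle array lay below every WT array, while the UA arrays overlapped both groups. Kcnc1 was 1.42-fold lower in APP/PS1 vehicle than in WT mice (log2 difference -0.51, SE 0.11, limma adjusted p = 0.0125). All 3 of its kept probes passed, with differences of -0.51, -0.38 and -0.47.

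Kcnc2 had levels of 0.65, 1.03 and 1.37 in UA, 0.35, 0.54 and 1.20 in APP/PS1 vehicle and 0.70, 1.36 and 1.54 in WT mice, again as lowest, median and highest. The groups overlapped: WT replicate 3, at 0.70, lay among the APP/PS1 vehicle arrays, and the other 5 WT arrays lay above all of these. The difference was -0.63 (SE 0.16, 1.55-fold lower, limma adjusted p = 0.0285). A second, dimmer Kcnc2 probe gave -0.01 (limma adjusted p = 0.981 over kept probes), so the call rests on 1 of 2 probes. Kcnc4 differed by -0.40 (limma adjusted p = 0.205).

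The start regions of Kcnc1, Kcnc2 and Kcna2, 3 of the genes that fell, are shown from their RefSeq promoter entries (assembly GRCm38.p6). Each runs from 250 bases before to 50 after the annotated start, on the plus strand, 5′ to 3′, at chr7:46396218-46396517 for Kcnc1, chr10:112269767-112270066 for Kcnc2 (the most upstream of 4 entries) and chr3:107101317-107101616 for Kcna2. Capitals mark the GC box letters GGGCGG or, on the other strand, CCGCCC.
Kcnc1: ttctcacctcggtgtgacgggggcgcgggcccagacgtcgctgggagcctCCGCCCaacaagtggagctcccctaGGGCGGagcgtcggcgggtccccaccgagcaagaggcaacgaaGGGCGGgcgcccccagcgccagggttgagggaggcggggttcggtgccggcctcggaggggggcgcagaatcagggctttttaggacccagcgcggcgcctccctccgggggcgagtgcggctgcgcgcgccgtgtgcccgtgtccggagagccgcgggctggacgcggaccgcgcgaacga
Kcnc2: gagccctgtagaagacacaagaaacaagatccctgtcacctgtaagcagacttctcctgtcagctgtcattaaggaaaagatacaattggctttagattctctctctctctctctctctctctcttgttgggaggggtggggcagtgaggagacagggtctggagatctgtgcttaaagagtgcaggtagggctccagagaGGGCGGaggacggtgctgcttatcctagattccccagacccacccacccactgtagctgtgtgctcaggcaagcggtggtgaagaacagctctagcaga
Kcna2: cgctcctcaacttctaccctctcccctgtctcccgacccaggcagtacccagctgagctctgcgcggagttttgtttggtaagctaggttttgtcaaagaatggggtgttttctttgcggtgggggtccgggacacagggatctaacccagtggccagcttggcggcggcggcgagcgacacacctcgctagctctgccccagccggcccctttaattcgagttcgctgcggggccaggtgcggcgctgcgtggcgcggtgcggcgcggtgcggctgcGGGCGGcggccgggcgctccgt
The Kcnc1 window held 3 GC boxes and 74.7% G and C, the Kcna2 window 1 box and 66.7%, and the Kcnc2 window 1 box and 52.7%. Among 59 potassium channel genes with an entry, 31 (52.5%) held a GC box, against 35.9% of all 27025 promoters of this length. The TATA box, searched as TATAAA and, for the other strand, as its reverse complement TTTATA, was in 1 of the 59 (1.70%), which was none of these 3, against 14.2% of all. The cAMP response element TGACGTCA was in 0 of 59, against 1.85% of all. Their median share of G and C was 60.3%, against 52.7%. The 59 genes had passed the detection rule, while the set of all promoters was not filtered for detection. A match of letters is a description of the window and no evidence of a bound factor.

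**Figure D2:**
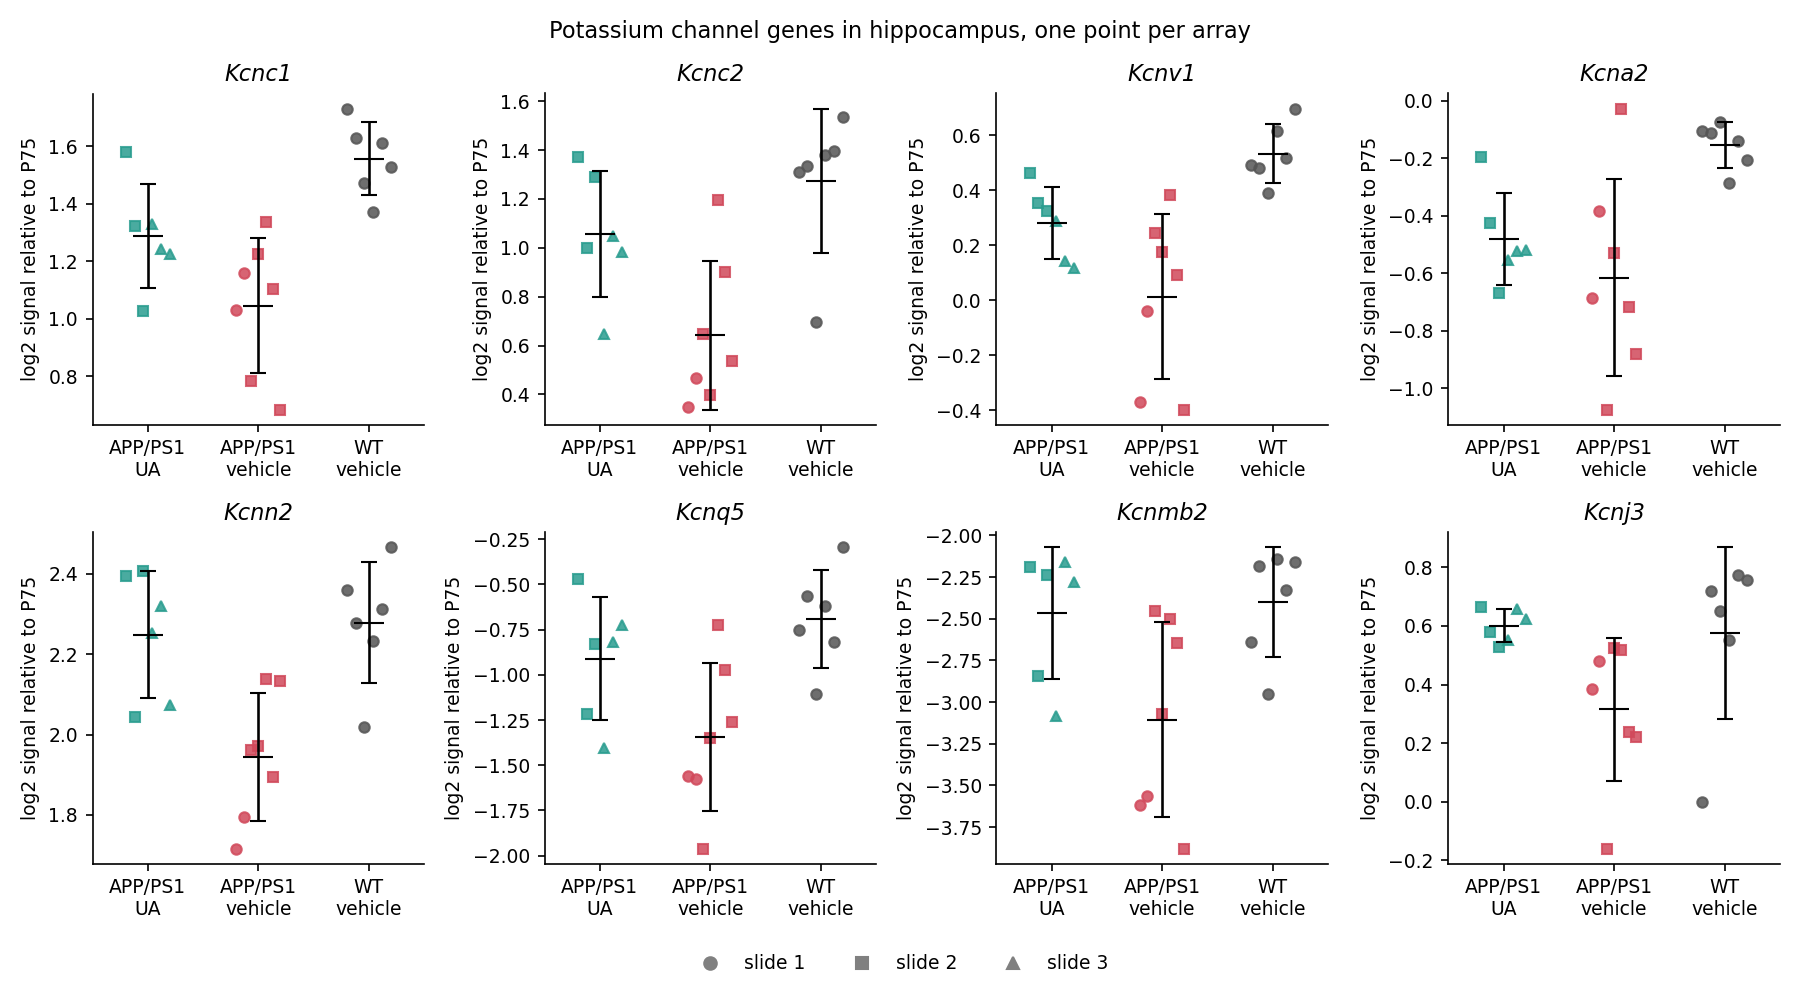
Levels of 8 potassium channel genes on each array (y axes, log2 signal relative to the array's 75th percentile, P75, not starting at 0), by group, with the group mean and SD as bars and the slide as the symbol. The APP/PS1 vehicle points of Kcnc1 and Kcnv1 lie below all WT points, and those of the other 6 genes overlap WT.

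The Kcna genes encode Kv1-type channels of axons and terminals, which delay spikes and limit transmitter release. All 7 measured members had negative differences, with a median of -0.29, and Kcna2 alone passed. Its lowest, median and highest levels were -0.67, -0.52 and -0.20 in UA, -1.08, -0.69 and -0.03 in APP/PS1 vehicle and -0.29, -0.13 and -0.07 in WT mice. Replicate 5 of the APP/PS1 vehicle mice was above every WT array, and the other 6 were below all of these. The difference was -0.46 (SE 0.13, 1.38-fold lower, limma adjusted p = 0.0452), from 1 probe. Kcna6 differed by -0.23 (limma adjusted p = 0.0726), Kcna4, an A-type channel, by -0.29 (limma adjusted p = 0.172) and Kcna3, known from T cells and microglia as well as neurons, by -0.37 (limma adjusted p = 0.218). With normexp background correction of the median signal, chosen after the data were seen, Kcna3 differed by -0.0041 (limma adjusted p = 0.981) and Kcna2 by -0.37 (limma adjusted p = 0.0583), neither passing.

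Silent subunits of the Kcnf, Kcng, Kcns and Kcnv groups form no channel alone and modify Kcnb channels when they join them. Of 10 measured, 9 had negative differences, with a median of -0.36, and Kcnv1 passed. Kcnv1 had levels of 0.12, 0.31 and 0.46 in UA, -0.40, 0.09 and 0.38 in APP/PS1 vehicle and 0.39, 0.51 and 0.70 in WT mice. As with Kcnc1, no APP/PS1 vehicle array reached the lowest WT array, though the gap was narrow. Members whose vehicle and WT arrays did not overlap, lower in APP/PS1, were these 2 of 82 (2.44%), against 0.836% of all genes; 0 members lay wholly higher, against 1.36%. The Kcnv1 difference was -0.52 (SE 0.12, 1.43-fold lower, limma adjusted p = 0.0181), and its second probe gave -0.56 (limma adjusted p = 0.0452 over kept probes). Kcnf1 differed by -0.58 (SE 0.21, limma adjusted p = 0.107), Kcns3 by -0.39 (limma adjusted p = 0.148) and Kcns1 by -0.33 (limma adjusted p = 0.129).

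Of the delayed rectifiers that these subunits join, Kcnb2 differed by -0.0041 (limma adjusted p = 0.990).

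Kcnd channels carry the A-type current of dendrites, and Kcnip proteins are their calcium-binding partners. None of these 7 genes passed, although 6 had negative differences. Kcnd3 differed by -0.36 (limma adjusted p = 0.155) and Kcnd2 by -0.30 (limma adjusted p = 0.239). The 4 Kcnip genes had a median of -0.23, led by Kcnip3 at -0.36 (limma adjusted p = 0.203) and Kcnip4 at -0.24 (limma adjusted p = 0.196).

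Kcnq channels carry the M-current, the slow brake on repetitive firing that acetylcholine turns off. Kcnq5 had levels of -1.41, -0.82 and -0.47 in UA, -1.96, -1.35 and -0.73 in APP/PS1 vehicle and -1.10, -0.69 and -0.29 in WT mice, and the groups overlapped. Its difference of -0.65 (SE 0.19) was among the most negative of the family, with a limma adjusted p of 0.0509. It was -0.41 with normexp background correction, and 2 other kept probes gave -0.36 and -0.07. Whether Kcnq5 passed depended on the setting. It did with sex as a covariate (limma adjusted p = 0.0033) and with quantile normalization (limma adjusted p = 0.0457), and did not with slide as a block. Kcnq3, a brain subunit of the same channels, differed by -0.12. The 7 Kcnh genes, the family of the cardiac hERG channel, had a median of -0.03, and Kcnh4 differed by 0.31 (limma adjusted p = 0.145).

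Calcium-activated channels shape the pauses after spikes. Kcnn2, the small-conductance channel of pyramidal cell spines, fell. Its levels were 2.04, 2.29 and 2.41 in UA, 1.72, 1.96 and 2.14 in APP/PS1 vehicle and 2.02, 2.30 and 2.47 in WT mice. In APP/PS1 vehicle mice, 5 of 7 arrays lay below every WT array. The difference was -0.33 (SE 0.09, 1.26-fold lower, limma adjusted p = 0.0421), and 2 dimmer Kcnn2 probes gave -0.18 and -0.10, neither passing. Kcnn1 differed by -0.24 (limma adjusted p = 0.177) and Kcnn3 by -0.15.

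The large-conductance channel gene Kcnma1 differed by -0.47 (limma adjusted p = 0.211). Kcnmb2, which encodes an inactivating beta subunit of that channel, had levels of -3.09, -2.26 and -2.16 in UA, -3.88, -3.07 and -2.45 in APP/PS1 vehicle and -2.95, -2.25 and -2.14 in WT mice. Its difference of -0.71 (SE 0.24, limma adjusted p = 0.0937) was the most negative of the 82 and did not pass, the groups overlapping widely; with normexp background correction it was -0.27. Kcnmb4, the neuronal beta subunit, differed by -0.21 (limma adjusted p = 0.220). Of the sodium-activated channels and their relative, Kcnt1, Kcnt2 and Kcnu1, none passed, and the 3 differences lay between -0.12 and 0.02.

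Inward rectifiers include the G protein-gated channels that lower excitability after GABA or adenosine signalling. None of 11 Kcnj genes passed, and 9 had negative differences, with a median of -0.19. Kcnj3, a subunit of the G protein-gated channels, differed by -0.26 (limma adjusted p = 0.211), and its partners Kcnj6 and Kcnj9 by 0.17 and -0.29. Among the 9 leak channel genes, none passed and 5 were below 0. Kcnk3 differed by -0.36 (limma adjusted p = 0.202) and Kcnk12 by -0.27 (limma adjusted p = 0.207).

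Members known from glia, immune cells or vessels did not pass either. Kcnk6 differed by 0.27 (SE 0.10, limma adjusted p = 0.125), Kcnn4, the intermediate-conductance channel of microglia, by 0.30 (limma adjusted p = 0.264), and Kcnk13, a microglial leak channel, by 0.15. Kcnj2 differed by 0.38 (limma adjusted p = 0.379), Kcnj16, found in astrocytes, by -0.31, and Kcnj8 and Kcnj11, pore subunits of ATP-sensitive channels, by -0.01 and -0.08. With the mean of all kept probes, the differences were -0.02 for Kcnn4 and 0.95 for Kcnj2, so their probes disagree in size or sign. In the same comparison 9 of 12 microglia markers and 3 of 8 astrocyte markers rose, with medians of 0.71 and 0.27.

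Accessory subunits and noncoding members completed the set. Kcnab2, a beta subunit of Kcna channels, had levels of -1.36, -1.02 and -0.78 in UA, -1.16, -0.82 and -0.56 in APP/PS1 vehicle and -1.52, -1.13 and -0.99 in WT mice. It differed by 0.35 (SE 0.12, limma adjusted p = 0.0956), the smallest p among the 15 members above 0, while Kcnab3 differed by -0.35. Kcne1 was not well above background on any APP/PS1 vehicle array and was on 2 UA and 4 WT arrays, so no fold is given. Kcnq1ot1, the imprinted noncoding RNA of the Kcnq1 locus, differed by 0.35 (limma adjusted p = 0.242).

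**Figure D3:**
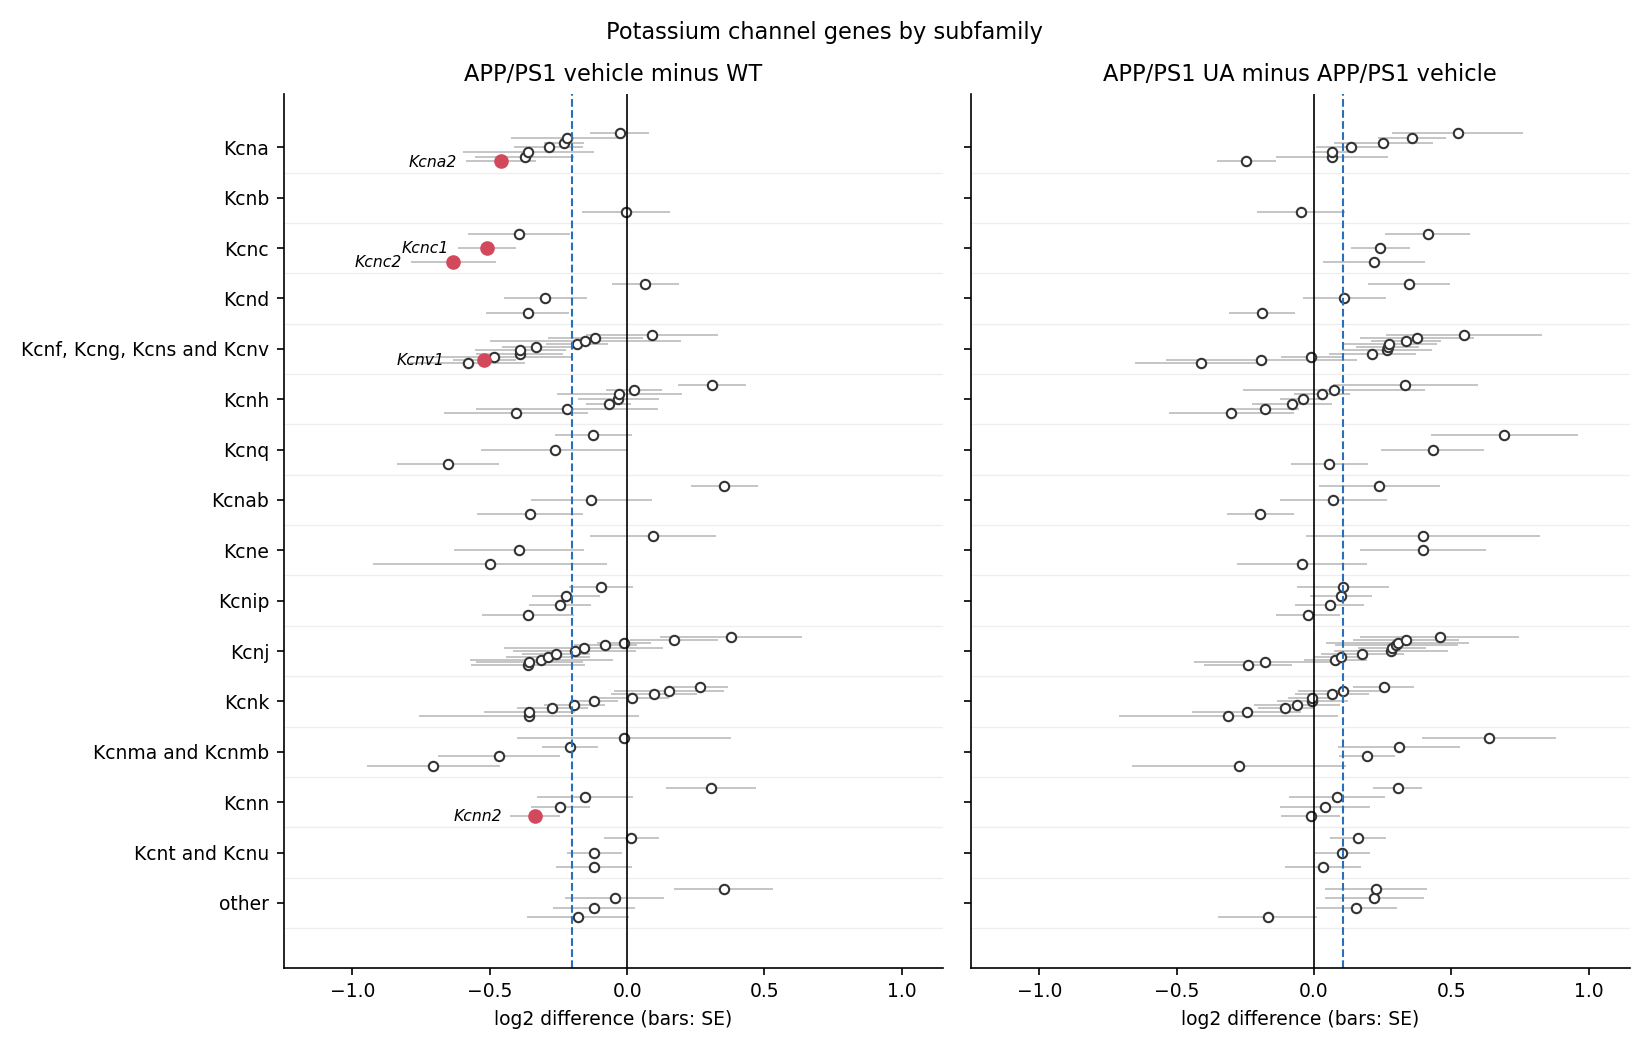
Log2 difference of 79 of the 82 potassium channel genes, with its SE as the bar, by subfamily, for APP/PS1 vehicle minus WT (left) and UA minus APP/PS1 vehicle (right). Filled points passed at an adjusted p under 0.05, the solid line is 0 and the dashed line is the median of all 82, -0.20 on the left and 0.10 on the right.

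UA was compared with vehicle in APP/PS1 mice to ask what the treatment changed. No potassium channel gene passed, and neither did any of the 25599 genes (0%), by limma at an adjusted p under 0.05. An unadjusted p under 0.05 was seen for 14 members, or 17.1%, against 15.3% of all genes. Differences were above 0 for 57 members and below 0 for 25, or 30.5%, against 51.7% of all genes below 0. The members' median was 0.10, their range -0.41 to 0.69, and the median of all genes was -0.01. The APP/PS1 vehicle arrays enter both this comparison and the one with WT, so the 2 sets of differences are not independent.

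Kcnn2 had the smallest p of the family, with a difference of 0.30 (SE 0.09, limma adjusted p = 0.158). All 6 UA arrays lay above the vehicle mean, though the lowest UA array, at 2.04, was below the highest vehicle array, at 2.14. Kcna4 had levels of -0.02, 0.44 and 0.54 in UA and -0.25, -0.03 and 0.18 in APP/PS1 vehicle mice, and the groups overlapped. Its difference was 0.36 (SE 0.12, limma adjusted p = 0.210). Kcnc2 differed by 0.42 (SE 0.16, limma adjusted p = 0.230), Kcns1 by 0.34 (SE 0.13, limma adjusted p = 0.232) and Kcnmb2 by 0.64 (SE 0.24, limma adjusted p = 0.235). With normexp background correction of the median signal, chosen after the data were seen, Kcnmb2 differed by 0.15 (limma adjusted p = 0.511).

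Kcnj3 was the member whose UA and vehicle arrays did not overlap, 1 of 82 (1.22%), against 0.305% of all genes that lay wholly higher in UA. It had levels of 0.53, 0.60 and 0.66 in UA and -0.16, 0.38 and 0.53 in APP/PS1 vehicle mice. The groups all but touched, with the lowest UA array at 0.5266 and the highest vehicle array at 0.5256. The UA arrays were close together and the vehicle arrays spread, with a difference of 0.29 (SE 0.12, limma adjusted p = 0.282). A second Kcnj3 probe gave 0.18. Kcnq1, a slow cardiac and epithelial channel near the detection limit, differed by 0.69 (SE 0.27, limma adjusted p = 0.241); 6 UA and 4 APP/PS1 vehicle arrays measured it well above background. With normexp background correction Kcnq1 differed by -0.06 (SE 0.11, limma adjusted p = 0.748), so the higher level in UA was not seen with that processing.

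Among the other genes that passed between genotypes, Kcnv1 differed by 0.27 (SE 0.12, limma adjusted p = 0.276), Kcnc1 by 0.24 (SE 0.11, limma adjusted p = 0.292) and Kcna2 by 0.13 (SE 0.13, limma adjusted p = 0.627) between UA and vehicle mice. Kcnq5 differed by 0.43 (limma adjusted p = 0.280) and Kcnd3 by 0.35 (limma adjusted p = 0.283). By subfamily, the medians were highest for Kcne at 0.40 (3 genes), Kcnj at 0.28 (11 genes) and the silent subunits at 0.27 (10 genes). Of the Kcne genes, Kcne1 was well above background on 0 of 7 APP/PS1 vehicle arrays and Kcne3 on 4 of 7. The medians were lowest for Kcnh at -0.04 (7 genes) and Kcnk at -0.01 (9 genes). No member lay wholly lower in UA, against 0.551% of all genes. Kcna7 and Kcng4, at -0.25 and -0.41, were among the members below 0.

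UA-treated APP/PS1 mice were also set against WT mice. No member passed, against 0.0898% of all genes, and 6 members (7.32%) had an unadjusted p under 0.05, against 8.58%. The median was -0.09 over the members and -0.02 over all genes, with 55 members below 0 (67.1%) against 53.8% of all genes. Kcna2 differed by -0.33 (SE 0.13, limma adjusted p = 0.522), and all 6 UA arrays were below the WT mean. Kcnc1 differed by -0.27 (SE 0.11, limma adjusted p = 0.528), Kcnv1 by -0.25 (SE 0.12, limma adjusted p = 0.582) and Kcnc2 by -0.22 (SE 0.16, limma adjusted p = 0.718). Kcnn2 differed by -0.03 (SE 0.09). Between these groups 0 members lay wholly apart, against 0.484% of all genes lower and 0.543% higher. Kcna7, Kcnn1, Kcna6 and Kcnk12 lay between -0.28 and -0.16, and Kcne1l (now Kcne5) and Kcnn4 were at 0.49 and 0.35, none passing.

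The family's level was also followed on each array as the median, over the 82 genes, of the deviation from each gene's mean. It ran from -0.04 to 0.12 in UA, -0.31 to 0.07 in APP/PS1 vehicle and 0.03 to 0.15 in WT mice. Group means were 0.04 ± 0.06 in UA (SD, n = 6), -0.08 ± 0.12 in APP/PS1 vehicle (SD, n = 7) and 0.11 ± 0.05 in WT mice (SD, n = 6). APP/PS1 vehicle replicate 7 stood lowest, and without it the members' median difference to WT was -0.16 and 3 members passed. In that fit 700 of all 25599 genes passed, against 1246 with every array.

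Levels of 3 lists of neuron markers are given beside these differences, and their part in them was not tested. None of 12 interneuron markers passed in APP/PS1 vehicle against WT mice, 11 were below 0 and their median was -0.29. Their mean level per array ran from 2.84 to 3.19 in UA, 2.22 to 3.10 in APP/PS1 vehicle and 3.05 to 3.29 in WT mice. None of 8 general neuron markers passed, 7 were below 0 and their median was -0.28. Their mean level ran from 5.17 to 5.48 in UA, 4.91 to 5.37 in APP/PS1 vehicle and 5.23 to 5.59 in WT mice. Pyramidal and granule cell markers differed least: none of 9 passed, 6 were below 0 and their median was -0.08. Their mean level ran from 1.81 to 2.47 in UA, 1.97 to 2.35 in APP/PS1 vehicle and 2.09 to 2.32 in WT mice. All 20 interneuron and general neuron markers were well above background on every array.

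Choroid plexus markers, which show tissue from the ventricle in a dissection, varied most, with mean levels per array from -2.34 to 3.51 in UA, -3.62 to 4.05 in APP/PS1 vehicle and -1.95 to 3.52 in WT mice. None of the 9 passed between APP/PS1 vehicle and WT mice, all were above 0, and their median difference was 1.73. With their level as a covariate, chosen after the data were seen, Kcnc1, Kcnv1 and Kcnc2 passed, while Kcna2 at -0.46 (limma adjusted p = 0.0639) and Kcnn2 at -0.27 (limma adjusted p = 0.0745) did not. In that fit 1095 of all 25599 genes passed. Replicate 7 of the vehicle mice had the highest choroid plexus level and the lowest interneuron and neuron levels of the 19 arrays.

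**Figure D4:**
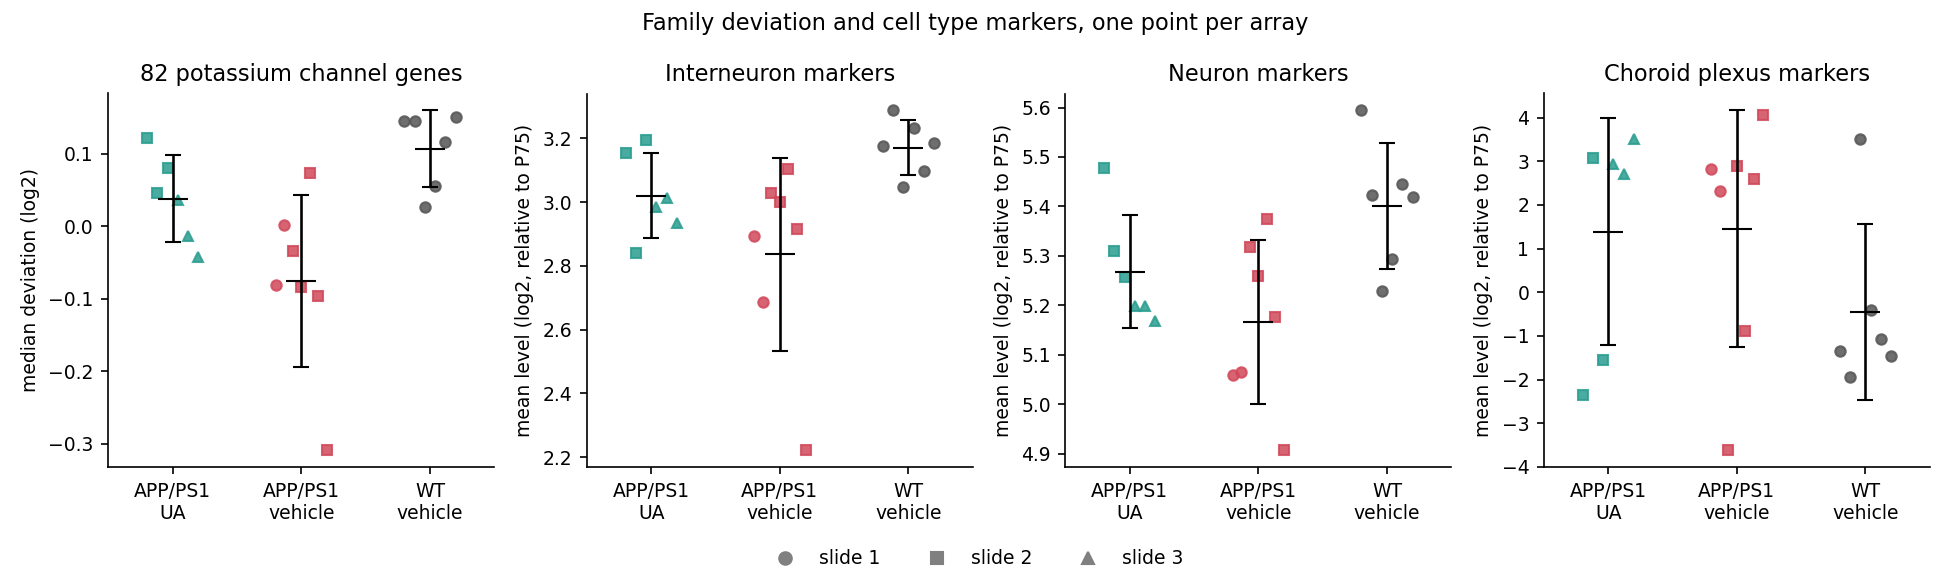
From left to right, the median deviation of 82 potassium channel genes and the mean level of interneuron, neuron and choroid plexus markers on each array (y axes in log2 units, not starting at 0), by group, with mean and SD as bars and the slide as the symbol. APP/PS1 vehicle replicate 7 is lowest in the first 3 panels, at -0.31, 2.22 and 4.91, and highest in the fourth, at 4.05.

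Slide was partly confounded with genotype, because WT arrays were on slide 1 alone, and with treatment, because slide 3 held UA arrays alone. In APP/PS1 vehicle against WT mice with slide as a block, no potassium channel gene passed (limma, 13 members at an unadjusted p under 0.05). Of all genes 70 did, against 1246 without slide. Kcnc1 then differed by -0.46 (limma adjusted p = 0.210), Kcnv1 by -0.74 (limma adjusted p = 0.0656), Kcnc2 by -0.87 (limma adjusted p = 0.106), Kcnn2 by -0.52 (limma adjusted p = 0.103) and Kcna2 by -0.38 (limma adjusted p = 0.343). Within slide 1, with 2 APP/PS1 vehicle and 6 WT arrays, the differences were the same to 2 decimals and the adjusted p-values lay between 0.0940 and 0.159. On that slide, Kcnc1 was at 1.03 and 1.16 in APP/PS1 vehicle mice, against 1.37 to 1.73 in WT mice. Kcnv1 was at -0.37 and -0.04 in APP/PS1 vehicle mice, against 0.39 to 0.70 in WT mice. The members' median difference within slide 1 was -0.14, with 54 of 82 below 0, and the median of all genes was -0.0031. For UA minus APP/PS1 vehicle, no gene passed with slide as a block or within slide 2. In both fits the members' median difference was 0.19, with 17 of 82 below 0, and the median of all genes was -0.0087. For the fits with slide, the shares of all genes below 0 or at an unadjusted p under 0.05 were not counted. With each APP/PS1 vehicle or WT array left out in turn (13 fits), Kcnc1 passed in all 13, Kcnv1 in 12 (not without WT replicate 6), Kcnc2 in 6, Kcnn2 in 4 and Kcna2 in 2.

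**Figure D5:**
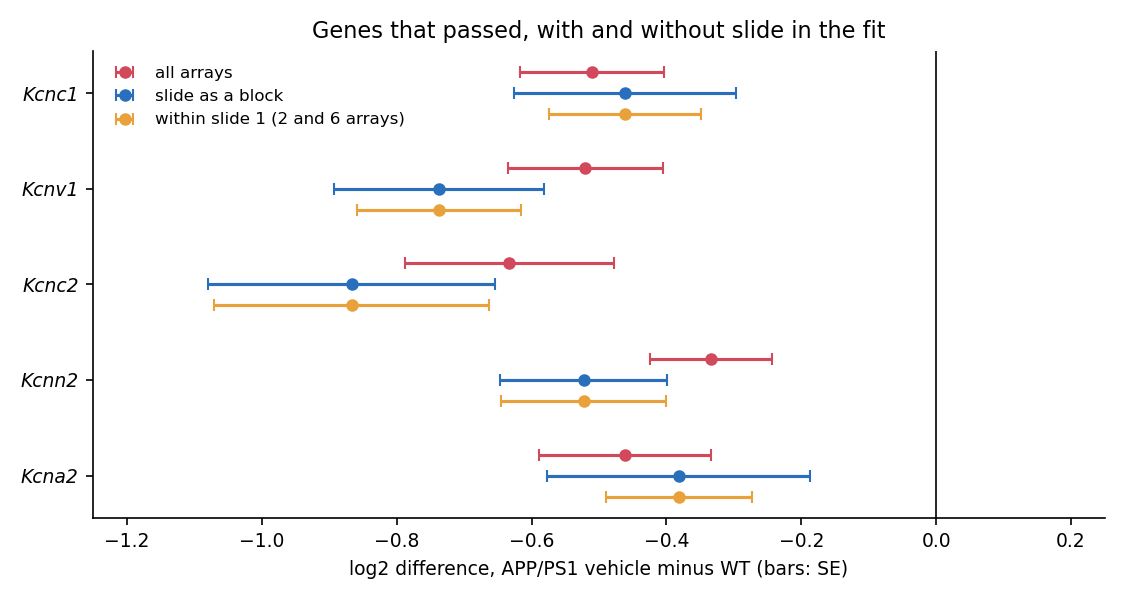
Log2 difference, APP/PS1 vehicle minus WT, of the 5 potassium channel genes that passed, with SE bars, over all arrays, with slide as a block and within slide 1. All points lie below 0, between -0.87 and -0.33.

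Genes whose products bind, anchor or work beside potassium channels were listed separately, and 31 of 33 were measured. In APP/PS1 vehicle against WT mice 4 fell and none rose, 25 were below 0, and the median was -0.16, where 2.28% of all genes fell, 2.59% rose and 48.9% were below 0. None of the 31 passed once slide was a block (limma, 7 at an unadjusted p under 0.05), 21 were below 0 and the median was -0.13. The median of all genes in that fit was -0.0031. Akap5, the anchoring protein that ties kinases to M-channels, differed by -0.52 (SE 0.13, limma adjusted p = 0.0303), and Amigo1, a partner of Kcnb channels, by -0.29 (SE 0.08, limma adjusted p = 0.0407). With slide as a block these were -0.57 for Akap5 (limma adjusted p = 0.200) and -0.13 for Amigo1 (limma adjusted p = 0.4996). Slc12a5, the neuronal potassium-chloride cotransporter, differed by -0.38 (SE 0.11, limma adjusted p = 0.0487), and by -0.30 with slide as a block (limma adjusted p = 0.350). Dpp6, an auxiliary subunit of Kcnd channels, differed by -0.30 (limma adjusted p = 0.0628) and did not pass. Between UA and APP/PS1 vehicle mice none passed, 11 of 31 were below 0 and the median was 0.09.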

How the data were processed

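Hippocampal RNA of 19 mice was measured on 1 Agilent mouse array each. Per the labels' protocols, Cy3 cRNA came from 200 ng of total RNA. Spot intensity comes from Agilent Feature Extraction 12.0.3.1 run with a protocol for 2-colour arrays, and the processed green intensity was background-subtracted and dye-normalized within each array, per the file headers. The labels describe no red sample, and the red channel was not used. The deposited value table is a score: each column equalled, within 0.00500, the log10 processed green signal centred and divided by its SD over the array, with column medians from -0.28 to -0.17. It served as an alternative.

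Each array had 62976 spots. After 3671 control spots and non-uniform spots were left out, spots of a probe were averaged (56605 probes), log2 values were taken relative to the array's 75th percentile over spots, and probes well above background on at least 6 arrays were kept (33450). Accessions were matched to a RefSeq gene table of GRCm38.p6, which named 32989 probes by 22907 symbols and left 23616 unnamed. The brightest kept probe stood for its gene. The model was lmFit with eBayes of limma 3.58.1 (R 4.3.3, with the data.table package, 1.17.8), in 1 fit over all 19 arrays, 2-sided, with Benjamini-Hochberg adjustment over 25599 genes, 16099 of them with a symbol. The test was checked on simulated data. The number of arrays limits the precision. Females, read from the arrays, were 1 of 6 UA, 3 of 7 APP/PS1 vehicle and 1 of 6 WT mice.

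The potassium channel genes, gene lists and tests were chosen with earlier results of these data known. Named were all members that passed, otherwise the 10 of smallest p per comparison, at least 1 member per subfamily, Kcnc2, and members known from glia, immune cells or vessels; others were added after their values were seen to fill in subfamilies. Alternatives were the background correction, scaling, probe filter, probe choice, slide, sex, replicate number, only the groups compared, the deposited values, choroid plexus level and leaving out each array. Some genes are not reported here.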

Additional observations from a re-analysis of the deposited data

Results flagged for a closer look

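In groups of 6 or 7 arrays, the highest or lowest array was set against its nearest neighbour by Dixon's 95% critical value. Of 99 groups tested (33 genes in 3 groups), 7 had an array that stood apart, and chance flags about 1 in 20. Kcnc2 had its lowest WT level, 0.70, in replicate 3, with the next WT array at 1.31. Kcnj3 had its lowest WT level, -0.0010, in replicate 1, with the next at 0.55. Kcne1, near the detection limit, had its lowest WT level, -5.32, in replicate 5. Kcnh4 had its highest APP/PS1 vehicle level, 0.51, in replicate 3, with the next at -0.06. Kcnq1 had its highest UA level, -3.42, in replicate 6, with the next at -4.28. Prnp, the check of genotype, had its highest APP/PS1 vehicle level, 8.37, in replicate 5 and its lowest WT level, 6.16, in replicate 3. That WT array stood apart for both Kcnc2 and Prnp. Without it Kcnc2 passed, as it did with all arrays, and 7 potassium channel genes passed against WT mice. In that fit 2195 of all 25599 genes passed.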

How the results depend on the processing

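For APP/PS1 vehicle against WT mice, 5 potassium channel genes passed as reported. The number was also 5 with quantile normalization, 4 with the deposited values and 6 with sex as a covariate. With only probes above background on all arrays it was 7 of 71 members measured. The number was 3 with the percentile over probes above background on all arrays, 1 with no filter on dim probes, 2 with the mean of all kept probes, 0 with slide as a block, 0 within slide 1, 1 with only the 2 groups compared, 1 with the replicate block and 3 with choroid plexus level as a covariate (chosen after seeing the data). It was 1 to 9 when 1 array was left out, with 1 without WT replicate 6, 2 without APP/PS1 vehicle replicate 1 or WT replicate 2, 4 or 5, 3 without APP/PS1 vehicle replicate 4, 6 or 7, and 9 without APP/PS1 vehicle replicate 5. Over all genes, 1246 passed as reported, 70 with slide as a block, 22 within slide 1, 337 with no filter, 393 with only the 2 groups, 311 with the replicate block, 802 with the deposited values and 1889 with sex as a covariate. The number over all genes was 1275 with that percentile, 921 with the mean of all kept probes and 1095 with choroid plexus level as a covariate. With quantile normalization it was 1316, and with only probes above background on all arrays 1590 of 20707. It was 376 without WT replicate 6 and 1919 without APP/PS1 vehicle replicate 5. Without APP/PS1 vehicle replicate 1, 4, 6 or 7 it was 532, 1006, 714 or 700, and without WT replicate 2, 4 or 5 it was 438, 662 or 488. Normexp background correction used the median signal, chosen after seeing the data because the planned fit on mean signal had no column. It gave a members' median of -0.062 for APP/PS1 vehicle minus WT, with a median of all genes of 0.0739. In that comparison 6 members passed, all lower, among 1714 genes. For UA minus APP/PS1 vehicle the members' median was -0.0026 and that of all genes -0.0783. There 4 members passed (Kcns1 and Kcnn2 higher, Kcng4 and Kcnj6 lower) among 1635 genes, 87 of them higher. The members' median for UA minus WT was 0.0094 with slide as a block, a fit that links these groups only through APP/PS1 vehicle arrays. Leaving out 1 array, the medians ran from -0.24 to -0.16, 0.08 to 0.14 and -0.12 to -0.07 in the 3 comparisons, and 0 members passed in either UA comparison. Same-numbered arrays did not pair (correlations of deviations between -0.55 and 0.39). No call reversed its direction under these settings, and the causes of these changes were not tested. The number of arrays and, for dim genes such as Kcne1 and Kcnq1, signal near background limit what could be detected.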
